A study of Drosophila melanogaster with 2 samples.

Results

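The T-box genes of heart, gut and ectoderm are bi, mid, H15, Doc1, Doc2, Doc3 and byn, 7 of the 18277 annotated genes (13968 of them protein-coding). They were chosen by name, and the peaks described lie in each gene's span widened by 5 kb on both sides or between neighbouring paralogs. The samples were whole Drosophila melanogaster embryos, 0 to 24 h old, of a transgenic strain that expresses the homeodomain protein H2.0 fused to eGFP. Fragments were immunoprecipitated with an antibody against GFP and sequenced (ChIP-seq). There was 1 group of 2 biological replicates, both carrying the transgene, and no second genotype, stage or treatment. All tissues of the embryo contribute to 1 library. The deposited peaks were derived with a control, per the file listings, but the control library was not analysed here. A peak is thus a site of signal in mixed tissue and does not by itself show H2.0 binding. No test of a difference between conditions could be made, and depth is unknown because peak lists were used.

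T-box proteins are transcription factors that bind DNA through a shared T domain. In the fly embryo, the Dorsocross genes Doc1, Doc2 and Doc3 act in the amnioserosa, the dorsal ectoderm and the heart precursors. The pair mid (midline) and H15 acts in cardioblasts and in the ventral ectoderm. The Brachyury homologue byn (brachyenteron) specifies the hindgut and is also needed in the caudal visceral mesoderm. The gene bi (bifid, also called optomotor-blind) is known from the nervous system and from Dpp-responsive discs. H2.0 itself is known from the visceral musculature.

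The peaks come from series-wide lists of both replicates together, which have a thresholded and a ranked form. The thresholded list holds peaks with an irreproducible discovery rate (IDR, the expected share of peaks that do not repeat among those ranked at least as high) of 0.01 or less, and has 4565 peaks on the chromosome arms. Which peak lists were compared for each IDR is not stated in the sources used here, so a low IDR in a series-wide or a replicate list is not by itself a repeat between the biological replicates. The ranked list holds 134701 peaks on the arms, most of them weak. The signal value is the authors' measure of a peak's enrichment, which was not scaled between lists, and its median was 94.6 in the thresholded list and 19.0 in the ranked list. Each replicate also has both kinds of list, with 3047 thresholded peaks on the arms in replicate 1 and 3110 in replicate 2.

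Of the 7 genes, 5 had a thresholded summit in the widened span, namely bi, mid, Doc1, Doc2 and Doc3, while H15 and byn had none. The spans held 6 summits, 1 of which counted for both Doc2 and Doc3. Over all protein-coding genes, 47.8% had a summit in the same widened span. By gene length this share was 49.4% for spans of 2 to 4 kb (the class of Doc1 and Doc3), 59.5% for 5 to 15 kb (mid, Doc2, byn and H15) and 68.1% for spans over 50 kb (bi). Each replicate alone covered 4 members, against 37.6% of protein-coding genes for replicate 1 and 38.9% for replicate 2, and in the conservative thresholded list 4 were covered, against 46.7%. The member that dropped out in each of these 3 lists was mid. A further 5 thresholded summits lay outside the widened spans, 2 of them between Doc2 and Doc1 and 3 between H15 and mid. Only 1 of these 11 summits was at a promoter (within 500 bp of an annotated transcription start), while 8 were intergenic, 1 was in an intron and 1 in a coding exon. Promoters held 46.0% of all thresholded summits. The 11 were not drawn as that list was, since 5 of them were added for lying between paralogs, outside the member genes. Of the 11, 8 had a deposited q-value under 0.05, against 69.4% of the whole list.

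**Figure D1:**
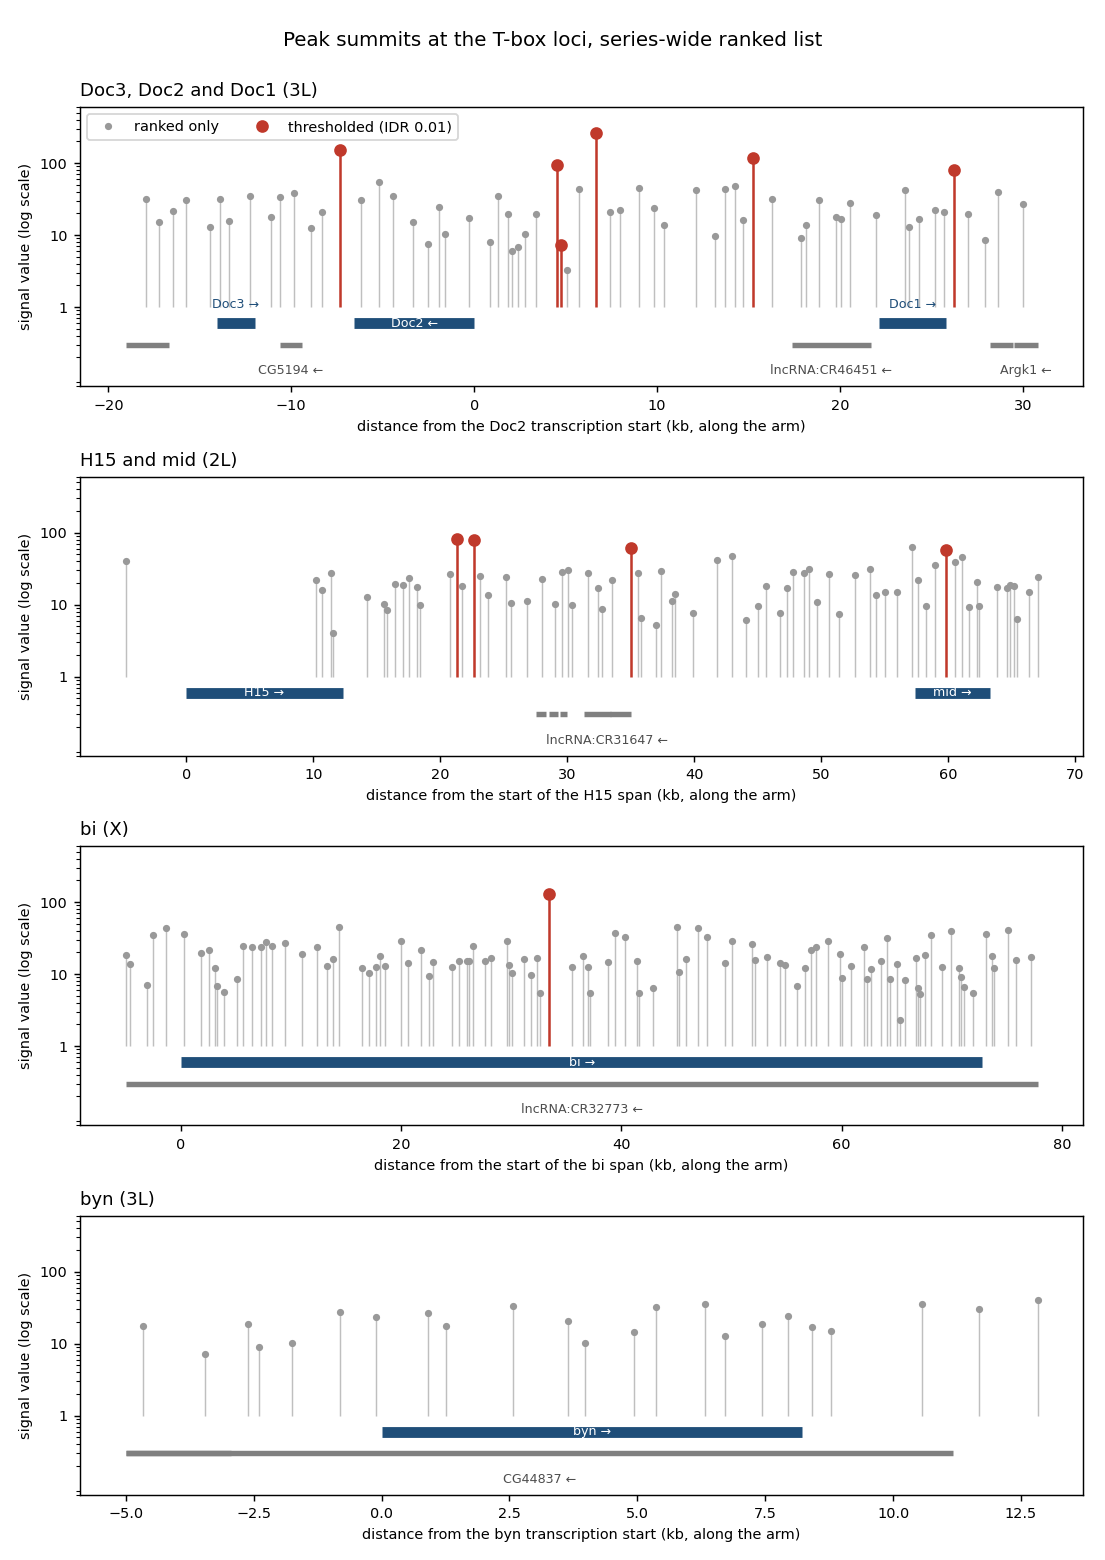
Signal values (log scale) of ranked summits along the Doc cluster, the H15 and mid region, bi and byn, by distance in kb from a reference start. Red points are thresholded summits, grey points are ranked summits that missed the threshold, blue bars are the T-box genes and grey bars are other genes, with arrows for strand. The 6 red points of the Doc cluster lie outside the Doc genes, bi has 1 red point in 104 summits and byn has none in 23.

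The Doc cluster, with the sequence between its genes, had 6 of the 11 thresholded summits. From 5 kb before Doc3 to 5 kb past Doc1 (3L, 9000196 to 9050042 on dm6), 6 thresholded summits lay in 49.8 kb, or 0.120 per kb, against 0.0332 per kb over all arms. None of the 6 lay inside a Doc gene, and all of them were intergenic. The 6 include the weak summit at 9023987, described below. The ranked list had 1.26 summits per kb there, against 0.979 over all arms. That ranked density was ordinary for genes, as the median over the widened spans of protein-coding genes was 1.24 per kb. For thresholded summits no such figure over gene spans was computed. The 0.120 per kb beside the arms therefore does not show an excess at the Doc genes.

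Between Doc2 and Doc1, which are transcribed away from each other, 4 thresholded summits lay in 22.1 kb. The strongest summit of the set was the one at 9025893 (peak 9025823 to 9025965), 6647 bp upstream of the start of Doc2 (FBgn0035956; minus strand, 9012686 to 9019246) and 15482 bp upstream of that of Doc1 (FBgn0028789; plus strand, 9041375 to 9045042). Its signal value was 261, above 89.6% of the thresholded list, with 130.3 in replicate 1 and 137.8 in replicate 2. Its IDR was 1e-05, the lowest value the lists record, in the series-wide list and in each replicate. Another summit, at 9034497, stood 6878 bp upstream of Doc1, with lncRNA:CR46451 in between, whose start was the nearest, 6432 bp away. It had a signal value of 117, with 62.4 in replicate 1 and 56.8 in replicate 2. Both replicates thus placed these summits past their own thresholds, and at ratios close to 1.

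A further site between Doc2 and Doc1, 4532 bp upstream of Doc2 (summit 9023778), had a signal value of 92.9, with 59.7 in replicate 1 (IDR 0.00438) and 31.5 in replicate 2 (IDR 0.00331). In replicate 2 the matched peak had a q-value of 0.1475 and stood above only 2.48% of that replicate's thresholded list. A weak summit stood beside it, at 9023987, with a signal value of 7.24 and a q-value of 0.896, which is above only 11.3% of the ranked list. The weak summit had an IDR of 0.000532, next to 0.000533 for its strong neighbour. Both peaks list the same pair of component peaks (the peaks that were compared for the IDR) in the ranked list. The thresholded list holds 74 peaks with a signal value under the median of the ranked list, and 71 of them share their component peaks with another thresholded peak. Without the weak summit, 5 thresholded summits lie in the widened spans and 4 between the Doc paralogs.

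Between Doc3 and Doc2, which point towards each other, 1 thresholded summit lay in 5.44 kb, at 9011900. It stood 786 bp past the 3′ end of Doc2 and 4651 bp past that of Doc3 (FBgn0035954; plus strand, 9005196 to 9007249), and the nearest transcription start was that of CG5194, which begins 2062 bp away. Its signal value was 150.3, above 73.8% of the thresholded list, with 98.8 in replicate 1 and 50.9 in replicate 2. Within each replicate's own thresholded list it stood above 71.9% of peaks in replicate 1 and above only 33.8% in replicate 2. Doc1 had a similar summit past its own 3′ end, by 456 bp, at 9045498. That summit had a signal value of 79.7, with 42.9 in replicate 1 and 43.6 in replicate 2, and the nearest start was that of Argk2, an arginine kinase gene, 1941 bp away. Leaving the weak summit aside, all 5 Doc sites passed the threshold in both replicates, as did 49.2% of all thresholded summits (a thresholded summit of each replicate within 200 bp). The site 4532 bp upstream of Doc2 was near the bottom of the thresholded list of replicate 2.

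The sequences of the 5 Doc sites that passed in both replicates are shown. Each is the plus strand of dm6 within 50 bp of the summit, read 5′ to 3′ from the RefSeq Release 6 sequence, and capitals mark matches to the fixed motifs other than the E-box.
Doc2 to Doc1, chr3L:9025843-9025943: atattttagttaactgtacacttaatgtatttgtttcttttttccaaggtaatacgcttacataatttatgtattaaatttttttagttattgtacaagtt
Doc3 to Doc2, chr3L:9011850-9011950: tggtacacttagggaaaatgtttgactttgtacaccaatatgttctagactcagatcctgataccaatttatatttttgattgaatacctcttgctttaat
Doc2 to Doc1, chr3L:9034447-9034547: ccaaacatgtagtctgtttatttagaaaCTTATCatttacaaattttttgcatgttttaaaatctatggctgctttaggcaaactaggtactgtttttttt
Doc2 to Doc1, chr3L:9023728-9023828: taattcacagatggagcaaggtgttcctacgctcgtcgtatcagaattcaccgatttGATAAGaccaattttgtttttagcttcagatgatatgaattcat
past Doc1, chr3L:9045448-9045548: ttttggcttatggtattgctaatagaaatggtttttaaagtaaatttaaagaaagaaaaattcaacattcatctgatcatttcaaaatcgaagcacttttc
The GC content was 20.8% at the strongest, 31.7% between Doc3 and Doc2, 27.7% at the site upstream of Doc1, 36.6% at the site 4532 bp upstream of Doc2 and 25.7% past Doc1. The median over all 4565 thresholded windows was 33.7% (quartiles 27.7% and 41.6%), so 4 of the 5 lay below it and 1 above. The capitals mark a GATA factor motif (GATAAG), on the minus strand 17 to 22 bp to the left of the summit upstream of Doc1 and on the plus strand 7 to 12 bp to the right of the one at 9023778. These made 2 of 11 windows with this motif, against 5.30% of all thresholded windows.

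Replicates differed most at Doc2 among the Doc sites. Over 4465 thresholded summits with a ranked summit of both replicates within 200 bp, the median log2 ratio of replicate 1 to replicate 2 was 0.12 and its SD 0.64. The summit between Doc3 and Doc2 had a log2 ratio of 0.96, above 92.8% of these summits, and the one 4532 bp upstream of Doc2 had 0.92, above 92.1%. The other 3 strong Doc summits lay between -0.08 and 0.14. The deviations at Doc2 are 1.31 and 1.26 SD from the median, which is within the spread of the list.

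**Figure D2:**
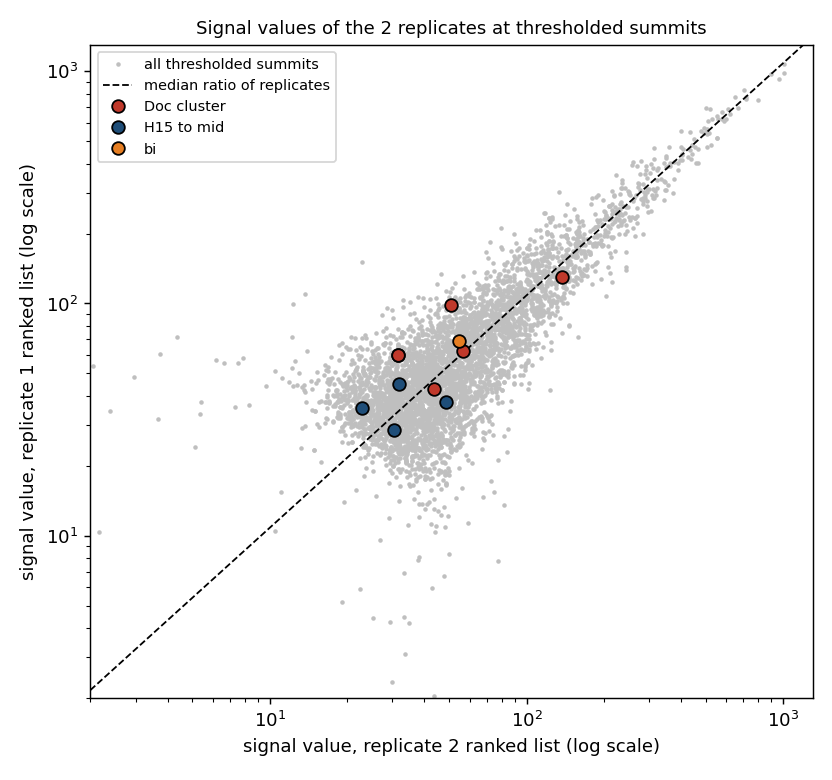
Signal value in the ranked list of replicate 1 against that of replicate 2 (both log scales) at 4465 thresholded summits (grey) and at the summits of the T-box loci (coloured); the dashed line is the median ratio. Of the Doc summits, the 2 at log2 ratios of 0.96 and 0.92 stand above the line, the weak summit at Doc2 has the same matched values as its neighbour, and the summits of H15, mid and bi lie within the grey cloud.

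Inside Doc2 itself, the 2 series-wide analyses gave different answers for 1 intronic peak (9013912 to 9014207). Its signal value of 53.9 is the same in both ranked lists, but its IDR was 0.662 in one and 0.00870 in the other, so that it entered the conservative list only. The replicates had 26.6 (IDR 0.831) and 28.4 (IDR 0.395) there, and neither passed.

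The paralogs mid and H15 lie 45.0 kb apart on 2L in the same orientation, and their 4 thresholded summits, with signal values of 57.8 to 82.0, passed in at most 1 replicate each. As 49.2% of all thresholded summits passed in both, failing in at least 1 replicate is common in the list. Of the 4, 2 passed in neither replicate, and the share of the whole list that did so was not computed. The thresholded summit counted for mid (FBgn0261963; plus strand, 5461639 to 5467610) lay in a coding exon at 5464078, 2439 bp downstream of the start. Its signal value was 57.8, above only 11.5% of the thresholded list, and its q-value was 0.236. The ranked lists of the replicates had 35.6 in replicate 1 (IDR 0.0225) and 23.0 in replicate 2 (IDR 0.820), so the site passed in neither. The series-wide IDR was 0.00431, and 0.0141 in the second series-wide ranked list.

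The highest summit near mid was another one, at the promoter, which missed the threshold. It lay at 5461426, 213 bp upstream of the start, with a signal value of 63.2 and an IDR of 0.0168, and with 17.3 in replicate 1 and 31.2 in replicate 2. The order of the 2 sites thus differed between the replicates, with the exon site higher in replicate 1 and the promoter site higher in replicate 2. In the series-wide ranked list, the exon site was just inside the threshold of 0.01 and the promoter site just outside. In the second series-wide ranked list both were outside, with an IDR of 0.0141 for the exon site and 0.276 for the promoter site.

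The exon window is shown because it holds the only T-box match of the set, in capitals.
mid exon, chr2L:5464028-5464128: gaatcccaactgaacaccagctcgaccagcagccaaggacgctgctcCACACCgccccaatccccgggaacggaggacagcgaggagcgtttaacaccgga
The capitals match the shorter T-box core (GGTGTG, here on the minus strand) from 3 bp to the left to 2 bp to the right of the summit. This core occurred in 3.37% of all thresholded windows, and the longer half-site GGTGTGA in 0.964% of them and in 0 of the 11. The window is GC-rich for the list, at 62.4%.

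Between H15 and mid, 3 thresholded summits lay in 45.0 kb, or 0.0666 per kb. The summit at 5425568, 8975 bp past the 3′ end of H15, had a signal value of 82.0 and passed in replicate 2 (48.7, IDR 0.00131) and not in replicate 1 (37.7, IDR 0.518). The summit at 5426962, 10369 bp past it, had 80.2 and passed in replicate 1 (44.9, IDR 0.00593) and not in replicate 2 (31.8, IDR 0.432). The 2 sites thus stand beside each other with each replicate calling a different one. The site at 5439290, with a signal value of 61.0, lay 13 bp upstream of the start of lncRNA:CR31647 and passed in neither replicate (28.6 and 30.4). It was the 1 promoter summit among the 11.

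H15 (FBgn0016660; plus strand, 5404280 to 5416593) had no thresholded summit in its widened span, and the nearest lay 10765 bp from a start, a distance exceeding that of 60.4% of protein-coding genes. Its widened span held 10 ranked summits in 22.3 kb, or 0.448 per kb, and 8.10% of protein-coding genes had a lower density (median 1.24 per kb). The highest of them had a signal value of 40.4 and an IDR of 0.100. Over 14.96 kb from 5399506 to 5414461, which takes in most of the gene, the series-wide ranked list had no summit at all. Of 134694 stretches between neighbouring ranked summits, 0.526% were at least as long. The stretch was taken as the longest at H15, so this share does not say how rare such a gap at a gene is. The longest stretch at each other member gave shares of 1.94% (Doc3) to 15.1% (Doc2). The second series-wide ranked list had 1 summit inside the H15 stretch. The replicates differed there, with 1 ranked summit in replicate 1 and 10 in replicate 2, whose signal values ran from 6.60 to 25.1. The highest stood above 92.2% of the ranked list of replicate 2. Over the whole widened span the counts were 5 and 19, while the 2 ranked lists held 98361 and 99419 summits on the arms.

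**Figure D3:**
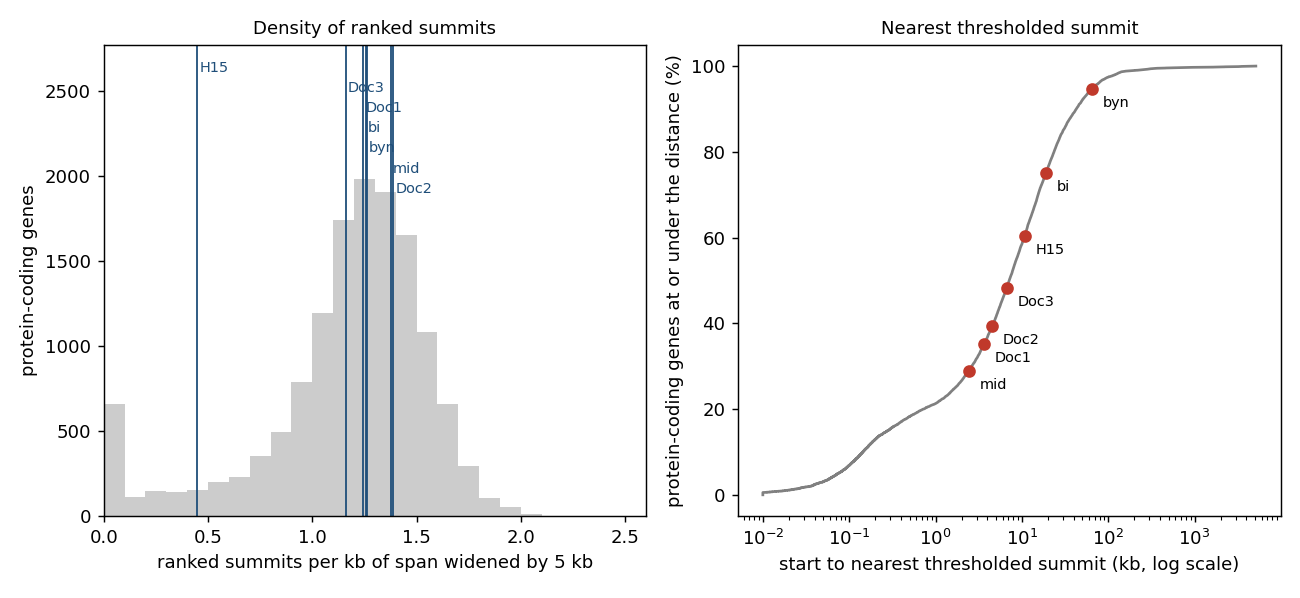
Left, number of protein-coding genes by ranked summits per kb of widened span, with the T-box genes as lines. Right, share of protein-coding genes whose nearest thresholded summit to a transcription start lies at or under a given distance (kb, log scale), with the T-box genes as points. H15 stands at 0.448 ranked summits per kb while the other 6 genes lie between 1.16 and 1.39, and byn is farthest from a thresholded summit.

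The gene bi (FBgn0000179; X, plus strand, 4412856 to 4485647) is the longest of the set and held 1 thresholded summit among 104 ranked ones. That is 0.0121 thresholded summits per kb of its 82.8-kb widened span, below the 0.0332 per kb of the arms. This density rests on 1 summit, and none over the spans of long genes was computed, so it does not show a lack of summits at bi. The summit lay in an intron at 4446254, 19119 bp downstream of the nearest start of bi, and also within lncRNA:CR32773, which runs on the opposite strand. Its signal value was 130.4, above 67.3% of the thresholded list, with 68.8 in replicate 1 and 54.7 in replicate 2, and it passed in both (IDR 0.000506 and 0.00153). Its place was lower within the replicates' own thresholded lists, above 51.1% of peaks in replicate 1 and 39.0% in replicate 2. The peak was only 76 bp wide in the series-wide list (4446249 to 4446324), against a median of 296 bp. The next strongest ranked summit of the gene had a signal value of 45.7 and an IDR of 0.0287.

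The bi window is shown as the one with a homeodomain core.
bi intron, chrX:4446204-4446304: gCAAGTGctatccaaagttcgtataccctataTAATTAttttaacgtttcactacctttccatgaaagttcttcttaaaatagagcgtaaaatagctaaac
The capitals mark an NK-class homeodomain motif (CAAGTG), 44 to 49 bp to the left of the summit, and the homeodomain core TAATTA, 13 to 18 bp to the left. TAATTA occurred in 1 of the 11 windows and in 9.24% of all thresholded windows, and CAAGTG in 1 of 11 and in 5.85%. CAAGTG is also an E-box (CANNTG), which 6 of 11 windows held, against 36.1% of all. None of the 11 held the DRE (TATCGATA, 1.71% of all), the GAGA factor motif (GAGAGAG, 1.03%), the Zelda motif (CAGGTAG, 0.460%), the Mad motif (GCCGNCG, 1.71%), the TCF motif (ATCAAAG, 1.73%), the forkhead motif (TGTTTAC, 2.89%) or the Mef2 motif (6.48%). With 11 windows, such shares are a description only.

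The hindgut gene byn (FBgn0011723; 3L, plus strand, 11927693 to 11935919), which lies within CG44837 on the opposite strand, had no thresholded summit in its widened span. The nearest lay 65526 bp from its start, and 94.8% of protein-coding genes had a nearer one. Its ranked density was ordinary, at 23 summits in 18.2 kb or 1.26 per kb, and 53.2% of protein-coding genes had a lower one. The highest signal value was 40.9 with an IDR of 0.731, and the lowest IDR was 0.399. In the replicates the highest values were 30.0 (IDR 0.851) and 21.6 (IDR 0.477). The gene thus had weak summits in both replicates, none near the threshold.

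The remaining fly T-box gene, org-1 (FBgn0021767), which is known from the visceral muscle founder cells, had a summit with a signal value of 588 at 364 bp from a start. This is above every summit of the 7 genes, the strongest Doc summit at 261 included. Its replicate values of 293.5 and 307.7 were likewise above the 130.3 and 137.8 of that Doc summit.

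Genes were also counted in 6 lists named by tissue or pathway, over the same widened span and beside the 47.8% of all protein-coding genes. A link between the listed genes and the T-box genes was not tested. Of cardiac regulators, 6 of 12 had a thresholded summit, with the highest signal values at the muscle factor gene Mef2 (584), zfh1 (406), the NK homeobox gene tin (381) and tup (303). Of hindgut and posterior gut genes, 7 of 11 had one, with bowl (453), otp (445), cad (175) and drm (108) as the highest. Of dorsal ectoderm and amnioserosa genes, 6 of 11 had one, again with tup and with the GATA cofactor gene ush (239), dpp (228) and sog (223). Of ventral ectoderm segment genes, 4 of 7 had one, slp2 (401), slp1 (93.0), ptc (91.8) and wg (71.5). All 7 Dpp response genes had one, with shn (367), Dad (163), tkv (93.4) and vg (90.4) as the highest. Of visceral mesoderm genes, 5 of 7 had one, org-1, jeb (194), Fas3 (182) and bin (116) being the highest. Over the 49 different genes, 31 (63.3%) were covered in the series-wide list, 27 in replicate 1 and 25 in replicate 2. By list, replicate 1 and replicate 2 alone covered 6 and 6 cardiac, 6 and 4 hindgut and 6 and 6 dorsal ectoderm genes. They covered 4 and 3 ventral ectoderm, 5 and 5 Dpp response and 4 and 4 visceral mesoderm genes. Of all protein-coding genes, replicate 1 covered 37.6% and replicate 2 covered 38.9%. No list was tested, and the lists were not compared at equal gene length.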

How the data were processed

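Peaks of anti-GFP ChIP-seq from 2 replicates of 1 group were used, as deposited on dm6 per the labels. The signal values, the −log10 q-values and, in ranked lists, the −log10 IDR are the authors' own, per the file listings and column order, and signal was not scaled between lists. For aligner, peak caller and their versions, the sources used here give no name. Peaks were derived from alignments and a control, per the listings. A summit is the start plus the summit offset, written 1-based. Genes came from Ensembl release 115, whose spans for all 7 members equalled RefSeq's. Summits within 200 bp were called shared, windows spanned 50 bp on both sides, and 13 motifs were searched on both strands. Counting, position classes and motif search were tested on simulated data (Python 3.11.15, pandas 2.3.3). Members, gene lists and motifs were chosen with earlier results of these data known. Named genes were the 7 members, org-1, the genes at or nearest to their summits, and up to 4 members of each list with the highest signal. No test was run, since 1 group allows no contrast. Alternatives were other lists, margins, IDR limits, a q-value limit, windows and distances.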

Additional observations from a re-analysis of the deposited data

How the results depend on the processing

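Of 44 alternatives to the main counts and shares, 11 moved them, by over 1.5 times for a count or by over the SD between replicates for a share. The 6 summits in the widened spans became 11 with a margin of 10 kb, and stayed between 4 and 8 under all other alternatives run. The number of covered members stayed between 4 and 6. The 3 summits between mid and H15 fell to 1 with either replicate alone, a different site in each. The share of protein-coding genes with a summit was 46.7% in the conservative list, 37.6% and 38.9% with replicate 1 or replicate 2 alone, 28.1% at a margin of 1 kb, 62.6% at 10 kb and 39.5% with q-values under 0.05. The share of list genes was 49.0% at 1 kb and 59.2% in the conservative list. At a margin of 1 kb, Doc3 had 0 summits and Doc2 had 1. Of 80 alternatives for single genes and motifs, 25 moved. Leaving out the weak summit was chosen after seeing the data. No paired analysis was possible because there is only 1 group. Depth is unknown, so values per peak carry no counting error.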
